A study of Rattus norvegicus with 9 samples.

Results

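The scaffold proteins of the postsynaptic density were followed through 9 genes: Dlg1, Dlg2, Dlg3 and Dlg4, Shank1, Shank2 and Shank3, Homer1 and Dlgap1. Every array probe set annotated with the symbol of 1 of these genes and no other was kept, which gave 26 of the 31042 rat probe sets. The 9 genes were among 14217 genes with such probe sets. The arrays held 2 to 5 of them for 7 genes and exactly 1 for Dlg2 and Shank3. Another probe set, annotated to both Hax1 and Homer1, was left out.

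The RNA came from the thalamus, the relay between the senses, brainstem and cortex, of male Wistar rats that were 3 weeks old at the start of the experiment. All rats ate powdered feed for 2 preparatory days. Groups of similar average weight then received solid chow or powdered feed for 8 days, and the title of the study names mastication as what the diets were meant to vary. Each sample is labelled as 5 weeks old, and the diet is the only treatment named. There were 4 chow and 5 powder samples, each on 1 single-colour array. The labels speak of 10 rats and do not tie a sample to an animal, so the p-values measure only the spread between these samples, which may be technical.

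The postsynaptic density is a protein layer under the membrane of excitatory synapses, most of them on dendritic spines. Proteins of the Dlg family (Dlg1 is SAP97, Dlg2 PSD-93, Dlg3 SAP102 and Dlg4 PSD-95) hold NMDA and AMPA receptors and adhesion molecules through PDZ domains. Dlgap1 (GKAP) ties the Dlg proteins to the Shank proteins, which form the deeper layer, and Homer1 cross-links Shank to metabotropic glutamate receptors and to internal calcium stores. The study's title names dendritic spines in the thalamus.

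Values are log2 expression values as deposited, and differences are chow minus powder in log2 units with their standard errors. A probe set was called when its adjusted p (limma, Benjamini-Hochberg over all 31042 rat probe sets) was under 0.05. Levels of different probe sets cannot be ranked against each other, because each binds with its own strength. In the deposited table, the 9 values of most probe sets spanned less than 0.01 log2 units. Of the 26 scaffold probe sets, 10 spanned at least 0.01 and 16 spanned 0.000245 to 0.00104. The latter are called compressed here, since a test can be run on them while the size of their differences is close to nothing.

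In brief, 4 of the 10 uncompressed scaffold probe sets were lower under chow, those of Dlg3, Shank1, Dlgap1 and Dlg4. A second Dlg3 probe set was higher, and the other 5 were not called. Among all 4849 uncompressed rat probe sets, 54.9% were called, 38.8% lower and 16.1% higher, so that 4 lower and 1 higher of 10 lay close to the share over the whole array. The median difference of the 10 was -0.15, against -0.11 over the 4849. Over all 26 scaffold probe sets, 6 were called higher and 4 lower, where 34.6% of all rat probe sets were called (17.9% higher and 16.7% lower).

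**Figure D1:**
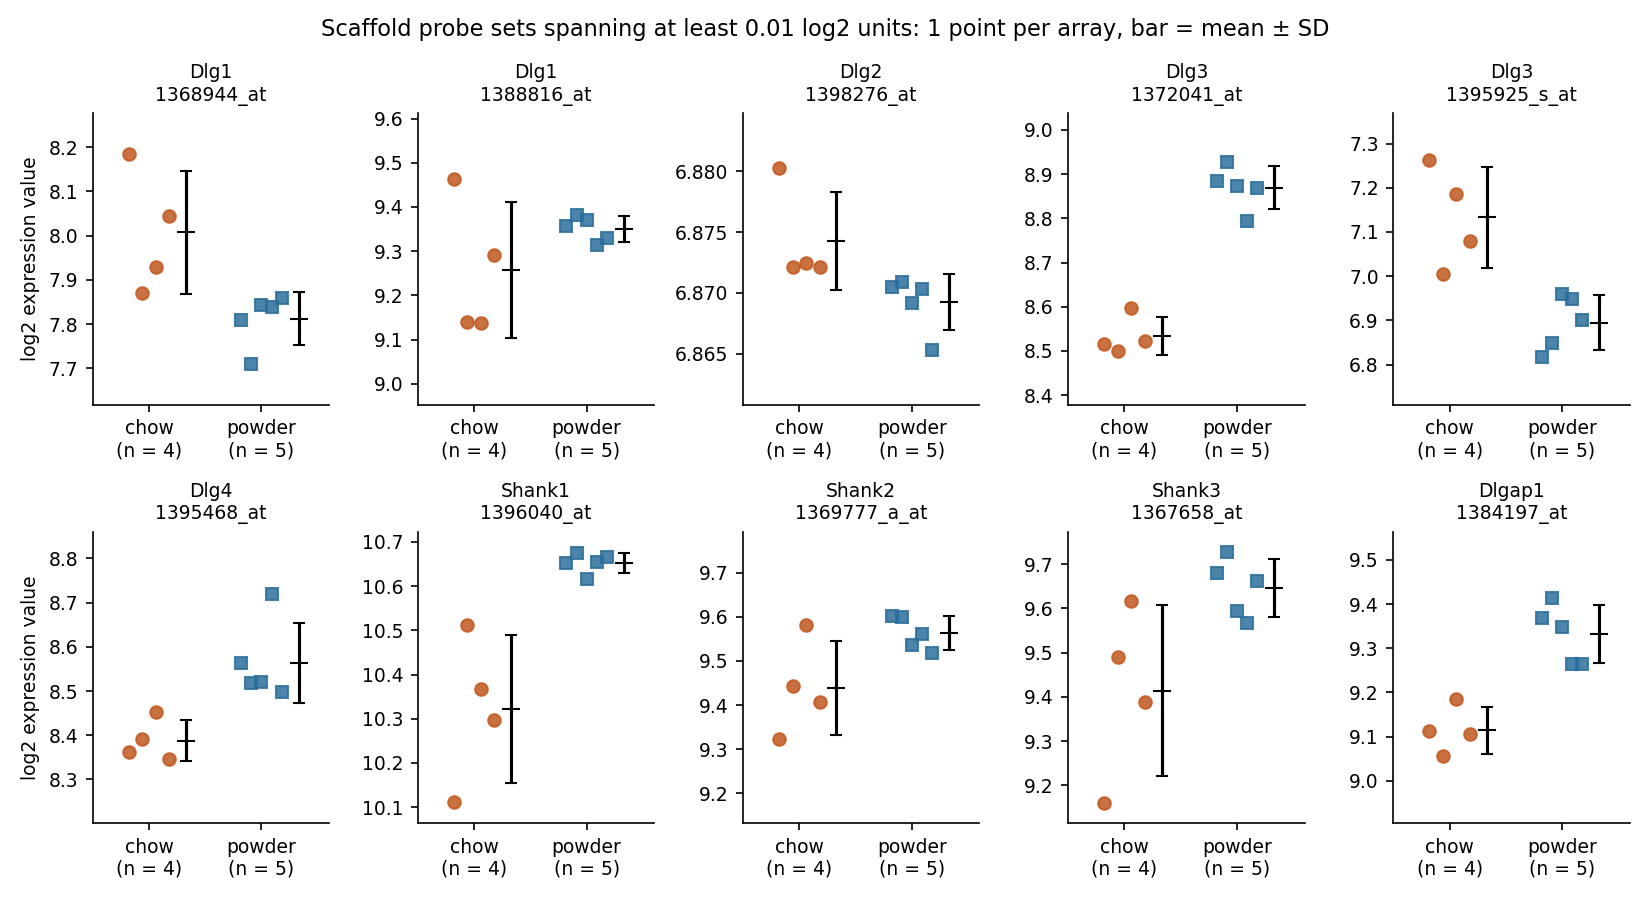
Log2 expression values (vertical axis) of the 10 scaffold probe sets spanning at least 0.01, with 1 point per array for 4 chow and 5 powder arrays and bars for mean ± SD. Each panel covers the same range except that of Dlg2, which is far narrower. The chow points lie below all powder points for Dlg3 (1372041_at), Dlg4, Shank1 and Dlgap1, and above them for Dlg1 (1368944_at), Dlg2 and Dlg3 (1395925_s_at).

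Array chow 1 lay farthest from the mean of the other arrays of its group (root mean square 0.266 over the uncompressed probe sets, against 0.127 to 0.185 for the other chow arrays and 0.114 to 0.148 for the powder arrays). Thalamic relay neuron markers, of which 11 of 12 genes were measured, averaged 9.12 on chow 1, 9.47 to 9.70 on the other chow arrays and 9.52 to 9.63 on the powder arrays. Chow and powder arrays overlapped for this list, with chow 3 the highest of all 9. Its member Slc17a6, the vesicular glutamate transporter of relay neurons, had a mean ± SD of 11.5 ± 0.257 on the chow arrays and 11.7 ± 0.0213 on the powder arrays. It differed by -0.13 (adjusted p = 0.371 in limma), and the probe sets of the list went both ways. Rora was at 0.22 (adjusted p = 0.187) and Zic1 at 0.23 (adjusted p = 0.163). Tcf7l2, the only gene of the list called, was at -0.30 on 1 probe set (adjusted p = 0.0354). Its other uncompressed probe sets were at -0.26 (adjusted p = 0.0779), 0.0066 (adjusted p = 0.975) and 0.21 (adjusted p = 0.215). The median difference over the 14 uncompressed probe sets of the list was -0.15, against -0.11 over all uncompressed rat probe sets. Striatum markers (8 of 9 genes measured) averaged 8.69 on chow 1, 7.80 to 7.89 on the other chow arrays and 7.71 to 7.79 under powder. Astrocyte markers (6 of 6 genes measured, 4 of them uncompressed) averaged 9.98 to 10.29 under chow and 9.81 to 9.94 under powder, but the probe sets of the list went both ways. Aqp4 differed by 0.53 on 1 probe set (adjusted p = 0.00601) and by -0.14 on another (adjusted p = 0.0546). Slc1a3 differed by 0.53 on 1 probe set (adjusted p = 0.0211) and by 0.021 on another (adjusted p = 0.874). Gja1 was at 0.44 (adjusted p = 0.068) and Gfap at -0.20 (adjusted p = 0.20). The astrocyte list thus had 2 genes called higher and 0 lower. Vessel and blood markers (6 of 7 genes measured, 3 of them uncompressed) averaged 9.0833 to 9.3180 under chow and 9.3188 to 9.3940 under powder. The diet groups did not overlap for the striatum, astrocyte and vessel lists. The 3 uncompressed genes of the vessel list each overlapped between the diets, but Flt1 was called lower (-0.41, adjusted p = 0.0352). Hbb was at -0.038 (adjusted p = 0.648) and Pecam1 at -0.020 (adjusted p = 0.0635), neither called. Reticular nucleus and GABA neuron markers (8 of 8) averaged 9.23 on chow 1, 8.44 to 8.77 on the other chow arrays and 8.25 to 8.69 under powder, with overlap. These are means over the uncompressed probe sets of each list. The signal of the 3' control probe set of beta-actin exceeded that of its 5' probe set by 1.44 to 1.58 log2 units under chow and 1.55 to 1.70 under powder. For GAPDH the same difference was 0.36 to 0.61 under chow and 0.50 to 0.66 under powder, a wider overlap, and it was not used as a covariate. Array medians were 7.3907 to 7.3964 under chow and 7.3978 to 7.4019 under powder, without overlap, and the gap between the groups exceeds the span of every compressed scaffold probe set. No probe set was listed at 0, and in bulk tissue fewer cells of a type and less RNA per cell cannot be told apart. The part of these differences in the scaffold results was not tested. Values without chow 1 and with the beta-actin difference as a covariate stand beside the uncompressed probe sets. The beta-actin difference ran almost with the diet, so the fit with this covariate cannot separate it from diet. The standard error rose from 0.072 to 0.119 for Shank1 and from 0.039 to 0.065 for Dlgap1, and stayed at 0.049 for Dlg4.

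**Figure D2:**
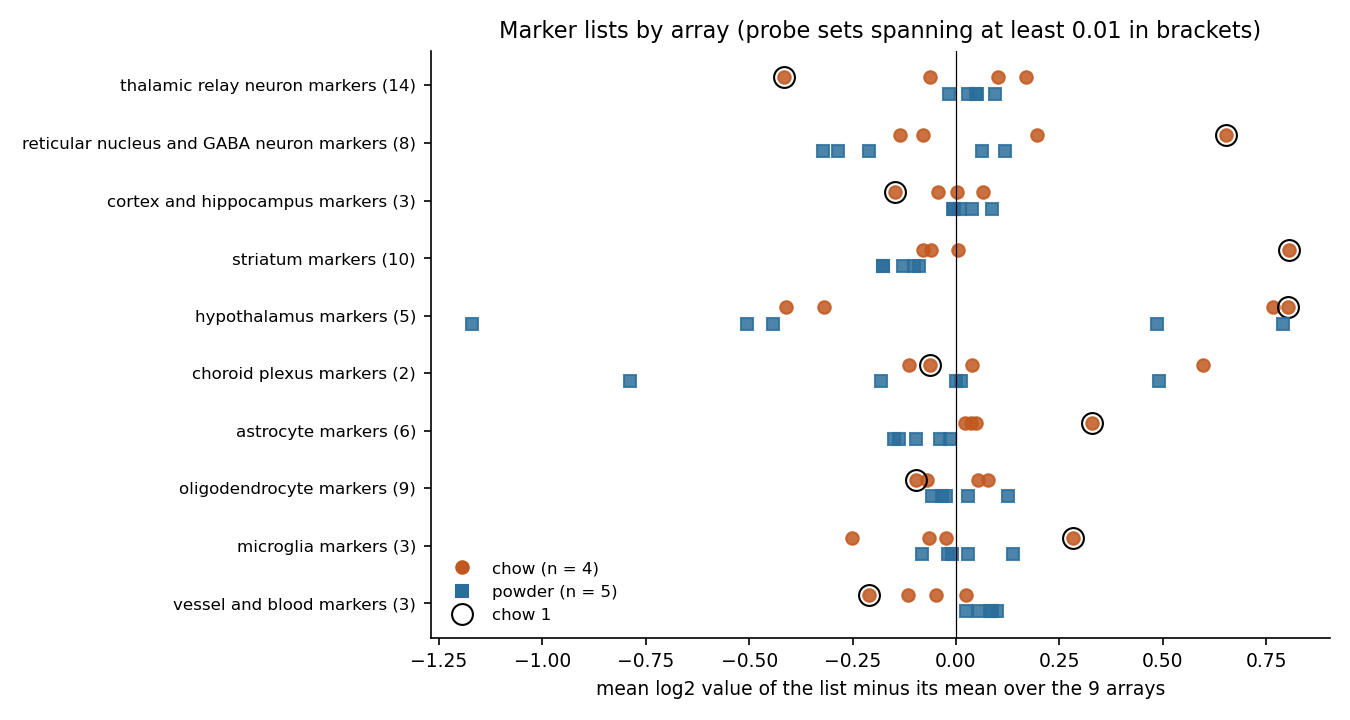
Mean log2 value of the uncompressed probe sets of each marker list on each array, minus the list's mean over the 9 arrays (horizontal axis), for 4 chow and 5 powder arrays, with array chow 1 ringed. Chow 1 is the highest array for the striatum list (8.69) and the lowest for the relay neuron list (9.12), and all chow arrays lie above all powder arrays for the astrocyte list.

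Promoter windows were available for 6 of the 9 genes in the RefSeq table of assembly GRCr8, each holding 250 bases before and 50 after an annotated start. Printed here are those of Dlg4 and Dlgap1, which have a probe set lower under chow, and of Dlg1, whose chow arrays all lay above the powder arrays on 1 probe set. Dlg3 and Shank1 had no entry. Capitals mark matches, on either strand, to the motifs searched. These were the cAMP response element TGACGTCA, the E-box CACGTG, the GC box GGGCGG and the TATA box TATAAA. The last was a loose MEF2 pattern, CTA and TAG with any 4 bases between them.
Dlg1 (chr11:82607748-82608047, minus strand): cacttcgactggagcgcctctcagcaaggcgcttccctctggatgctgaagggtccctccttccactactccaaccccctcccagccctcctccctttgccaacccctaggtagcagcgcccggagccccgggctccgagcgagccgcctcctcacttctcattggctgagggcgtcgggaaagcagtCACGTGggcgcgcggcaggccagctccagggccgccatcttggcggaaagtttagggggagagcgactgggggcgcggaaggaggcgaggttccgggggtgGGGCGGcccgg
Dlg4 (chr10:55239534-55239833, plus strand): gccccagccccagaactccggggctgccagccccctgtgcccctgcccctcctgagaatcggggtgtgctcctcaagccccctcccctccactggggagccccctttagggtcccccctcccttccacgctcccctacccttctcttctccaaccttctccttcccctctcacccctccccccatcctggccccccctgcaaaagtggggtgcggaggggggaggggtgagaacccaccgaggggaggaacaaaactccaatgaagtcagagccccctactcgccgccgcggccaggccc
Dlgap1, first window (chr9:117613834-117614133, plus strand): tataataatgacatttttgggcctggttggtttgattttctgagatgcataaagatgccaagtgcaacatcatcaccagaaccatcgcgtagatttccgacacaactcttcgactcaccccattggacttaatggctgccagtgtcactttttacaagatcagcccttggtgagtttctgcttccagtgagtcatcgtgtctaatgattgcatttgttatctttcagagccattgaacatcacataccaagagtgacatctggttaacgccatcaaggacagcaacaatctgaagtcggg
Dlgap1, second window (chr9:117864208-117864507, plus strand): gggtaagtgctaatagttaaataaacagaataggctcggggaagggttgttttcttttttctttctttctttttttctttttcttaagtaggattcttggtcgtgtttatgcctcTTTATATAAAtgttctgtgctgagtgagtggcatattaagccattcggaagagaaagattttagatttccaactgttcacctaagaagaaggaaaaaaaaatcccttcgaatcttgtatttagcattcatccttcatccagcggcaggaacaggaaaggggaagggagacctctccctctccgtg
The Dlg1 window held an E-box and a GC box, which 6.42% and 33.1% of all 33469 windows in the table hold. The second Dlgap1 window held overlapping TATA box matches on both strands, a motif that 14.2% of windows hold. Distance from the start was not weighed, so all of these are matches of letters only. The Dlg4 window and the first Dlgap1 window held none of the motifs. None of the 7 scaffold windows held the cAMP response element, which 1.83% of all windows hold. The Homer1 window held the TATA box letters and a match to the loose MEF2 pattern, which 3.84% of all windows hold. The middle bases of that match, CCCG, include no A or T, so it is not called a MEF2 site here. Base composition differed among the printed windows, at 69.0% G and C for Dlg1, 68.7% for Dlg4 and 43.3% and 39.0% for the Dlgap1 windows, against a median of 51.7% over the table.

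Dlg3, the scaffold SAP102 that carries NMDA receptors in young synapses, had both the largest decrease and the largest increase among the scaffold probe sets. Probe set 1372041_at read 8.52, 8.50, 8.60 and 8.52 on chow arrays 1 to 4 and 8.88, 8.93, 8.87, 8.79 and 8.87 on powder arrays 1 to 5. All chow arrays lay below all powder arrays, with a gap of 0.20 between the groups that exceeded the range within either (0.0991 and 0.133). The probe set fell by 0.34 on the log2 scale (-0.34 ± 0.030, 0.792-fold, adjusted p = 0.0018 in limma). It was also called without chow 1 (-0.33, adjusted p = 0.00562) and with the beta-actin covariate (-0.33, adjusted p = 0.035).

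Probe set 1395925_s_at of the same gene went the other way. It read 7.26, 7.004, 7.19 and 7.08 on the chow arrays and 6.82, 6.85, 6.96, 6.95 and 6.90 on the powder arrays. Every chow array lay above every powder array, by a gap of only 0.0446. The probe set rose 1.18-fold (0.24 ± 0.057, adjusted p = 0.0195 in limma), and remained called without chow 1 (0.20, adjusted p = 0.0379). With the beta-actin covariate its difference was 0.13 (adjusted p = 0.306), no longer called. The 2 compressed Dlg3 probe sets differed by -1.94e-05 and 0.000145 and were not called.

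The divergence within Dlg3 was measured array by array. Within an array, 1395925_s_at minus 1372041_at had a mean ± SD of -1.40 ± 0.104 on the 4 chow arrays and -1.97 ± 0.0999 on the 5 powder arrays. The groups did not overlap, at -1.49 to -1.25 under chow and -2.08 to -1.85 under powder. The difference between the diets was 0.57. Since each probe set alone separated the diets, in opposite directions, the separation of their difference follows from those results and is given with no test. Such disagreement was frequent on the array. Of the 162 genes with at least 2 called uncompressed probe sets, 67 (41.4%) had called ones in both directions.

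**Figure D3:**
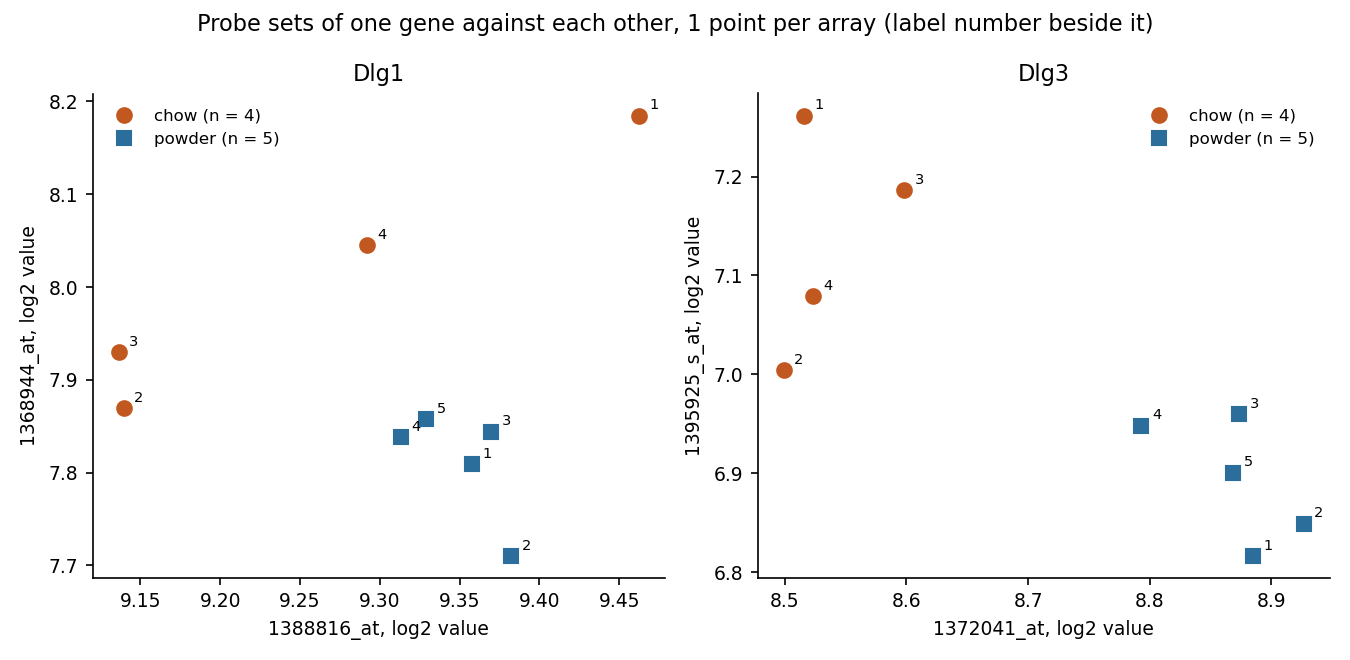
Log2 values of the probe sets of Dlg1 (left) and Dlg3 (right) plotted against each other, with 1 point per array, 4 chow and 5 powder, and the label number beside it. For Dlg3 the chow arrays occupy the upper left and the powder arrays the lower right. For Dlg1 the arrays chow 2, 3 and 4 lie to the left of and above all powder arrays, and chow 1 is highest on both axes.

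Dlg1, the gene of SAP97, which traffics AMPA receptors, showed a similar divergence between its probe sets, neither of which was called. Probe set 1368944_at read 8.18, 7.87, 7.93 and 8.04 under chow and 7.81, 7.71, 7.84, 7.84 and 7.86 under powder. The chow arrays lay above the powder arrays by a gap of 0.0119. The difference was 0.20 ± 0.066 (95% confidence interval 0.041 to 0.35, adjusted p = 0.0548 in limma), 0.14 without chow 1 (adjusted p = 0.0861) and 0.18 with the beta-actin covariate (adjusted p = 0.311). Without chow 2 it was 0.24 and called (adjusted p = 0.0369). It was also called under both ways of rescaling the arrays, with differences of similar size. These were 0.21 after quantile normalization (adjusted p = 0.0255) and 0.20 with array medians subtracted (adjusted p = 0.0145).

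Probe set 1388816_at of Dlg1 read 9.46, 9.14, 9.14 and 9.29 under chow and 9.36, 9.38, 9.37, 9.31 and 9.33 under powder. Array chow 1 stood above every powder array while the other chow arrays stood below them. The difference was -0.093 ± 0.067 (95% confidence interval -0.25 to 0.065, adjusted p = 0.301), and without chow 1 it was -0.16 (adjusted p = 0.032), a call. It was -0.043 with the beta-actin covariate (adjusted p = 0.817). Taken array by array, 1368944_at minus 1388816_at had a mean ± SD of -1.25 ± 0.0317 on the 4 chow arrays and -1.54 ± 0.0816 on the 5 powder arrays. Here chow 1, at -1.28, lay with the other chow arrays (-1.27 to -1.21). The diets differed by 0.29 (exact permutation p = 0.00794, the smallest value that 4 and 5 arrays allow). Adjustment over 2 pairs left it at 0.00794, because the Dlg3 pair, whose separation was already known, had the same p. Much of the Dlg1 outcome was known too. Probe set 1368944_at alone separated the diets, and on 1388816_at every chow array except chow 1 lay below the powder arrays. This p therefore adds little to the values of the single probe sets.

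Dlg4 encodes PSD-95, the most abundant scaffold of mature excitatory synapses. Its uncompressed probe set, 1395468_at, read 8.36, 8.39, 8.45 and 8.35 under chow and 8.56, 8.52, 8.52, 8.72 and 8.50 under powder. All chow arrays lay below all powder arrays by a gap of 0.0463, and powder 4 stood above the other powder arrays. The probe set fell by 0.18 (-0.18 ± 0.049, 0.885-fold, adjusted p = 0.0302 in limma). The call was lost without chow 1 (-0.17, adjusted p = 0.0704), chow 2 (0.0635), chow 4 (0.069) or powder 1 (0.0606). Without powder 4 the difference was -0.14 and still called (adjusted p = 0.0148). With the beta-actin covariate the difference was -0.30 (adjusted p = 0.0364), larger than without it and still a call. The other 3 Dlg4 probe sets were compressed, differed by 9.86e-05 to 0.000276 and were not called.

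Dlg2, the gene of PSD-93, a close relative of PSD-95, had a single probe set near the limit of compression. Its values were 6.88 on chow 1, 6.87 on the other chow arrays and 6.87 on each powder array, a span of 0.015. The difference was 0.005 ± 0.0021 (adjusted p = 0.0919), not called, and 0.003 without chow 1 (adjusted p = 0.13). With array medians subtracted it was 0.0116 and called (adjusted p = 0.00198), and after quantile normalization 0.0061 and called (adjusted p = 0.0472).

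Shank1, a Shank protein of the deeper layer that enlarges spines, had the second largest decrease. Probe set 1396040_at read 10.11, 10.51, 10.37 and 10.30 under chow and 10.65, 10.68, 10.62, 10.65 and 10.67 under powder. The powder arrays lay within 0.0599 of each other, the chow arrays spread over 0.401, and the groups did not overlap. Shank1 fell by 0.33 on this probe set (-0.33 ± 0.072, 0.795-fold, adjusted p = 0.0142 in limma). Without chow 1, the lowest array, the difference was -0.26 (adjusted p = 0.0146). With the beta-actin covariate it was -0.30 (adjusted p = 0.161), not called. The 2 compressed Shank1 probe sets were called higher, with differences of 0.000132 and 0.000155.

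Shank2 and Shank3, the other members of the Shank family, had lower chow means that did not pass the test. Shank2 (1369777_a_at) read 9.32, 9.44, 9.58 and 9.41 under chow and 9.60, 9.60, 9.54, 9.56 and 9.52 under powder. Chow 3 lay inside the powder range and the other chow arrays below it. The difference was -0.12 ± 0.049 (95% confidence interval -0.24 to -0.0094, adjusted p = 0.0846 in limma). Without chow 3 it was -0.17 and called (adjusted p = 0.0151), and without chow 1 it was -0.086 (adjusted p = 0.173). It was -0.19 with the beta-actin covariate (adjusted p = 0.161), and -0.12 and called with array medians subtracted (adjusted p = 0.0465). The compressed Shank2 probe set was called higher, at 0.000213.

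Shank3 (1367658_at), whose loss is linked to an autism syndrome in people, read 9.16, 9.49, 9.62 and 9.39 under chow and 9.68, 9.73, 9.60, 9.57 and 9.66 under powder. Chow 1 was the lowest array and chow 3 again lay inside the powder range. The difference was -0.23 ± 0.088 (95% confidence interval -0.44 to -0.026, adjusted p = 0.0762). Without chow 1 it was -0.15 (adjusted p = 0.109), and without chow 3 it was -0.30 and called (adjusted p = 0.033). It was -0.25 with the beta-actin covariate (adjusted p = 0.301), and -0.23 and called with array medians subtracted (adjusted p = 0.0349).

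Dlgap1, the link between the Dlg and Shank layers, fell by 0.22 on its uncompressed probe set 1384197_at (-0.22 ± 0.039, 0.86-fold, adjusted p = 0.0084 in limma). The values were 9.11, 9.06, 9.18 and 9.11 under chow and 9.37, 9.41, 9.35, 9.26 and 9.27 under powder. All chow arrays lay below all powder arrays, with a gap of 0.0792. The difference was the same size without chow 1 (-0.22, adjusted p = 0.0223). With the beta-actin covariate it was -0.23 (adjusted p = 0.0884), not called. Of the 3 compressed Dlgap1 probe sets, 1 was called higher, at 0.000524, and the others differed by -7.85e-05 and -9.6e-06.

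Homer1, the Shank partner whose short form is an activity-induced antagonist of the long forms, was represented by 5 probe sets, all compressed. Their differences were 4.01e-05 to 0.000187, with 1 called higher (1368319_a_at, adjusted p = 0.034). These values do not allow a size to be stated for any Homer1 transcript.

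**Figure D4:**
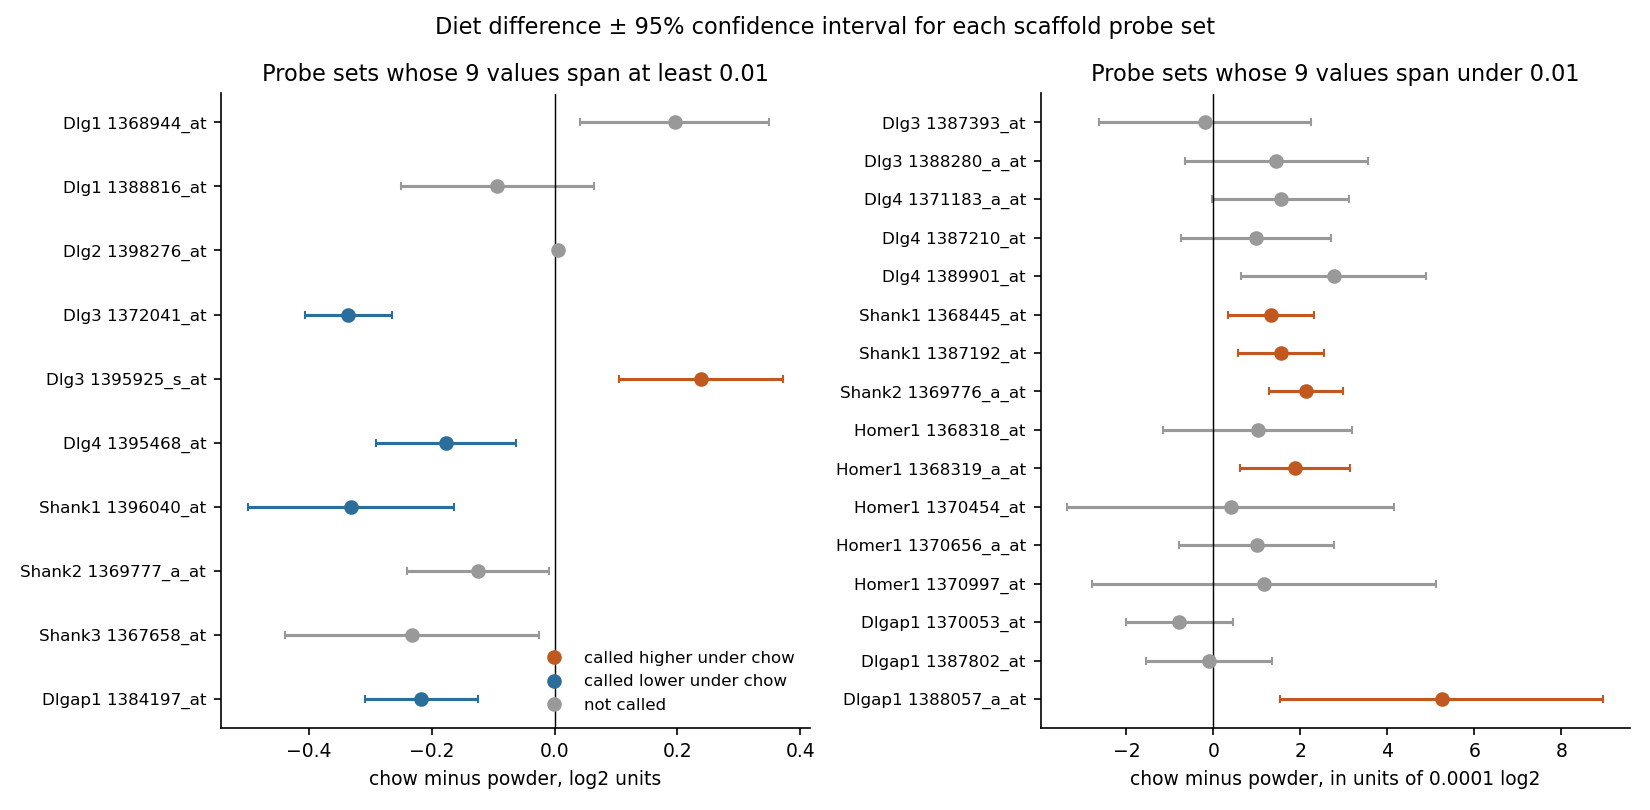
Chow minus powder (horizontal axis) with 95% confidence intervals for each scaffold probe set, on the log2 scale for the 10 uncompressed ones (left) and in units of 0.0001 log2 for the 16 compressed ones (right), coloured by call. On the left 4 probe sets are called lower and 1 higher, and on the right 5 are called higher and none lower.

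Over the 16 compressed scaffold probe sets, 5 were called higher and 0 lower in limma, where 30.9% of all compressed rat probe sets were called (18.2% higher and 12.7% lower). At an unadjusted p under 0.05, 6 were higher and 0 lower, and the test without moderation called 4 higher and 0 lower. Their differences ran from -7.85e-05 to 0.000524, and 13 of the 16 were above 0. After either rescaling of the arrays, 18 or 19 of the 26 scaffold probe sets were called higher, against 6 on the values as deposited. Quantile normalization turned the split over all rat probe sets from 5558 higher and 5195 lower into 15610 and 1854, and subtracting array medians into 27206 and 2141. Chow and powder arrays did not overlap for 7 of the 10 uncompressed scaffold probe sets (4 lower, 3 higher) and 5 of the 16 compressed ones. Non-overlapping groups were found for 29.9% of all rat probe sets, for 50% of the uncompressed ones (36% with chow below and 14.1% above) and for 26.1% of the compressed ones. Shank1 and Dlgap1 thus each held an uncompressed probe set called lower and compressed ones called higher.

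The scaffold probe sets were designed on different kinds of sequence record. By the accession in the platform annotation, 9 of the 26 were designed on expressed sequence tags (ESTs), single reads from cDNA clones, 9 on RefSeq transcript records and 8 on other records, all of these compressed. Of the EST probe sets 6 were uncompressed, and these include all 5 uncompressed scaffold probe sets that were called. Of the RefSeq probe sets 4 were uncompressed, 1 each of Dlg1, Dlg2, Shank2 and Shank3, and limma called 0 of these, with adjusted p from 0.0548 to 0.0919. All 4 had an unadjusted p under 0.05, and the test without moderation also called 0 after adjustment. With array medians subtracted all 4 were called, as they would be at an adjusted p under 0.1. Under that rescaling 27206 rat probe sets were called higher and 2141 lower, and an adjusted p falls when more probe sets pass. The Shank2 and Shank3 differences were slightly smaller there (-0.118 and -0.226) than as deposited (-0.124 and -0.232). The difference between record kinds was not tested. Over the whole array, 57.2% of uncompressed EST probe sets were called (1025 lower and 481 higher) and 35.9% of uncompressed RefSeq probe sets (73 lower and 115 higher).

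Genes whose profiles over the 9 arrays came closest to those of Dlg3 were found by the root mean square distance between profiles, each centred on its own mean, among 3431 uncompressed single-symbol probe sets of other genes. Nearest to 1372041_at were Ints2 (distance 0.0318, chow minus powder -0.31), Ccnt2 (0.0366, -0.36) and Atg2b (0.0382, -0.27). Nearest to 1395925_s_at were Gpbp1 (0.0337, 0.24), Sar1a (0.0339, 0.23) and Txnl1 (0.0347, 0.19). All 6 were called, which follows from choosing profiles that share the diet shift of the Dlg3 probe sets. None of the 6 is a postsynaptic scaffold.

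Other scaffolds and enzymes of the postsynaptic density were called in both directions. Of 45 genes listed, 40 were measured and 12 had an uncompressed probe set. Among these, 2 had such a probe set called higher and 3 lower, with Camk2b counted under both, where 20.2% of all 2906 genes with an uncompressed probe set had one called higher and 38.2% one called lower. Lrrc7 (densin), which binds CaM kinase, rose by 0.31 ± 0.069 (adjusted p = 0.0162). Camk2b, the beta subunit of that kinase, rose by 0.31 on 1 probe set (adjusted p = 0.0114) and fell by 0.13 on another (-0.13, adjusted p = 0.00732). Gopc, a PDZ protein of the Golgi, was lower (-0.28 ± 0.049, adjusted p = 0.00717), as was Iqsec1, an activator of Arf GTPases at the density (-0.25 ± 0.081, adjusted p = 0.049). The median difference over the 15 uncompressed probe sets of the list was -0.0093, against -0.11 over all uncompressed probe sets. Dlgap3, a relative of Dlgap1, was at -0.0093 (adjusted p = 0.286).

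Receptors and adhesion partners held by the scaffolds were called at shares near those of the array. Of 32 genes listed, 29 were measured and 13 had an uncompressed probe set, of which 3 had one called higher and 4 lower, where 20.2% and 38.2% of all 2906 genes did. Grin1, the obligatory NMDA receptor subunit, fell by 0.41 on 1 probe set (-0.41 ± 0.061, adjusted p = 0.00482), while its other uncompressed probe set was at -0.14 (adjusted p = 0.0644). Adam22, the LGI1 receptor that binds PSD-95, was lower on both of its uncompressed probe sets (-0.33, adjusted p = 0.00125, and -0.22, adjusted p = 0.0129). The kainate receptor subunit Grik2 (-0.30, adjusted p = 0.0241) and Cacng2, stargazin, which anchors AMPA receptors to PSD-95 (-0.25, adjusted p = 0.0367), were lower. The 3 higher genes were Gria3, an AMPA receptor subunit named although it falls outside the 6 largest differences (0.24, adjusted p = 0.0074), Cacng4, another AMPA receptor auxiliary subunit (0.39, adjusted p = 0.0044), and the NMDA receptor subunit Grin2a on both of its uncompressed probe sets (0.25, adjusted p = 0.0352, and 0.23, adjusted p = 0.0417). The median difference over the 17 uncompressed probe sets was -0.11, as over all uncompressed probe sets. With the beta-actin covariate, limma called 1 gene of this list lower and 0 higher, and 0 of the other list either way. At an unadjusted p under 0.05 these were 3 lower and 3 higher, and 2 and 2, and the test without moderation gave the same adjusted counts.

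**Figure D5:**
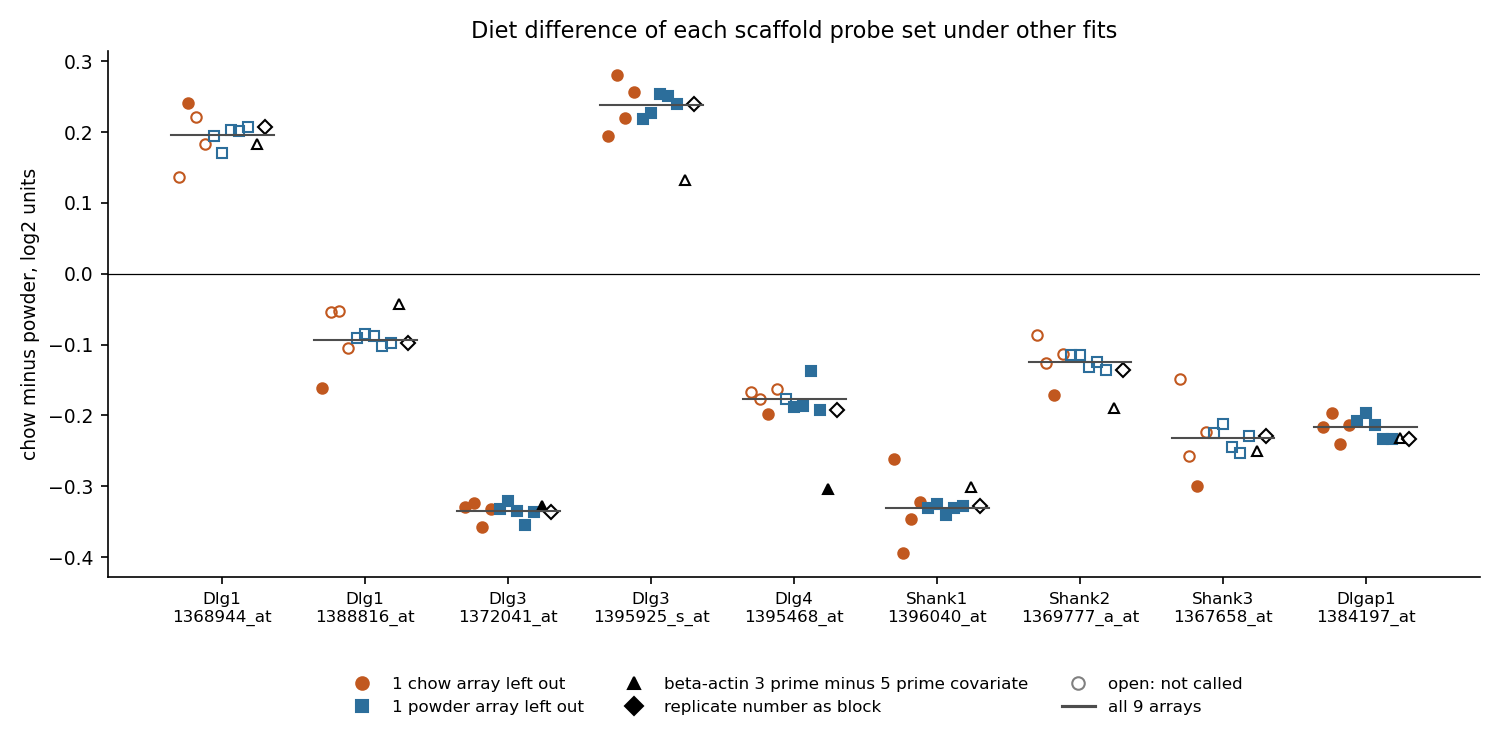
Chow minus powder (vertical axis, log2 units) for 9 of the 10 uncompressed scaffold probe sets under other fits, with 1 chow or powder array left out, the beta-actin difference as a covariate, or the label number as a block. Dlg2 is not drawn because its difference is 0.005. Filled symbols are called and open ones are not, and no probe set drawn crosses 0 under these fits.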

How the data were processed

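RNA from 9 thalamus samples, 4 chow and 5 powder, was measured on single-colour arrays, from 100 ng of total RNA per the labels' protocols. The authors deposited a single log2 value for each probe set on each array. That the values are log2 was read from their range (5.37 to 14.0), and for software, background correction, summarisation, centring and genome build, the entry is: not given in the sources used here. Array medians were 7.39 to 7.40, and no further normalization was applied. All chow medians lay below all powder medians, which bears on compressed probe sets and Dlg2. Detection calls were not used here, and the number of arrays limits the precision.

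Groups came from the sample titles. In R 4.3.3, limma 3.58.1 (lmFit, eBayes, no covariates) compared chow with powder over 31042 rat probe sets, after 57 control probe sets were left out, with Benjamini-Hochberg adjustment over all of them. Gene names came from the annotation of the array platform. The members, the lists and the 0.01 limit for compressed probe sets were chosen with earlier results of these data known. Named were all members, up to 6 called genes of each of the 2 pathway lists by size of difference, and for the extreme member probe sets the 3 genes of nearest profile. Dlgap3, Gria3, Slc17a6, Rora, Zic1, Tcf7l2, Aqp4, Gfap, Slc1a3, Gja1, Flt1, Hbb, Pecam1 and further probe sets were added after their values were seen. The same holds for Prox1, Slc17a7, Wfs1 and Mobp. The Dlg1 probe sets were compared by exact permutation, with p adjusted over the pairs of Dlg1 and Dlg3. Alternatives were rescaling, variance models, filters, array weights, a replicate block, a beta-actin covariate, a looser threshold and leaving out each array. The fitting was tested on simulated data. Of 200 changes planted there, similar in size to the larger scaffold differences, limma recovered 71, and 4.05% of its calls were false. A missing call thus does not show that a difference is missing. Marker lists (relay, reticular and GABA, cortex and hippocampus, striatum, hypothalamus, choroid plexus, astrocyte, oligodendrocyte, microglia, vessel and blood) were summarised as means over uncompressed probe sets.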

Additional observations from a re-analysis of the deposited data

Results flagged for a closer look

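Among the 20 sets of values tested (10 uncompressed scaffold probe sets in each diet group), 2 held an array far from the others of its group, and chance alone flags about 1 in 20. For Dlg2 the array chow 1 stood at 6.8803, with the nearest chow array at 6.8725, a gap of 0.953 of the group's range. For Dlg4 (1395468_at) the array powder 4 stood at 8.72, with the nearest powder array at 8.56, a gap of 0.711 of the range against a critical value of 0.71. Without powder 4 the Dlg4 difference was -0.14 and still called (adjusted p = 0.0148 in limma). Without chow 1 the Dlg2 difference was 0.003.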

How the results depend on the processing

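None of the 10 uncompressed scaffold probe sets changed sign under the alternatives run. Of their values under these, 156 kept their side of the threshold, 12 lost a call and 12 gained one. The difference between the Dlg1 probe sets kept its call under quantile normalization and with each array left out (0.25 to 0.30), and that between the Dlg3 probe sets ran from 0.52 to 0.61 with each array left out. Both outcomes largely followed from the values of the single probe sets.

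Counts of calls moved more. Under quantile normalization, 18 scaffold probe sets were called higher (3 uncompressed), 5 receptor and adhesion genes higher, and 15610 rat probe sets higher and 1854 lower. With array medians subtracted these were 19 (3 uncompressed), 5, 27206 and 2141, with 6 other density genes lower. With compressed probe sets left out of the fit, so that fewer were adjusted over, 2 scaffold probe sets were higher, 5 receptor genes higher, 5 other density genes lower, and 865 rat probe sets higher and 2019 lower. At an adjusted p under 0.1, 3 uncompressed scaffold probe sets and 5 receptor genes were higher and 6 other density genes lower. With the beta-actin covariate, 0 scaffold probe sets were higher and 2 lower (2 and 5 at an unadjusted p under 0.05), 0 density genes were called, 0 receptor genes were higher and 1 lower, and 567 rat probe sets were higher and 862 lower (100 and 421 uncompressed). The cause of these moves was not tested.

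Label numbers are shared between the diets, but same-numbered arrays deviated together in only 1 of 4 pairs (correlations -0.31, 0.19, -0.34 and -0.16), so the numbers were not taken as pairs, and each chow array was not closest to its own number. With the number as a block, limma called 0 scaffold probe sets either way (6 higher and 4 lower at an unadjusted p under 0.05), as did the test without moderation, 0 genes of both lists, and 1 rat probe set higher and 18 lower (1 and 17 uncompressed). Powder 5 then adds nothing to the contrast.

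With each array left out in turn, scaffold calls were 2 to 6 higher and 3 to 6 lower, of which uncompressed 1 to 2 and 3 to 6. Without chow 1 they were 2 higher and 4 lower. Other density genes ran at 2 to 3 higher and 2 to 4 lower, receptor genes at 2 to 5 and 3 to 5, all rat probe sets at 3661 to 4879 and 3906 to 4843, and uncompressed ones at 568 to 758 and 1511 to 1869. The number of arrays and the compressed values limit what can be read, and signal over background was not analysed here.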

Other observations

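Chow arrays varied more than powder arrays for many scaffold probe sets. The SD was larger under chow for 7 of the 10 uncompressed ones, with a median ratio of 2.09, where it was larger for 73.1% of all uncompressed rat probe sets with a median ratio of 1.497. The ratio was 7.32 for Shank1, 5.39 for Dlg1 (1388816_at), 2.96 for Shank3 and 2.85 for Shank2, and it was below 1 for Dlg4 (0.513), Dlgap1 (0.814) and the lower Dlg3 probe set (0.908). Array chow 1 was the lowest of the 9 arrays for all 3 Shank genes and the highest for both Dlg1 probe sets, Dlg2 and the higher Dlg3 probe set.

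The remaining marker lists, as means over uncompressed probe sets, were as follows. Oligodendrocyte markers averaged 11.87 to 12.04 under chow and 11.90 to 12.09 under powder, and microglia markers 8.13 to 8.66 and 8.29 to 8.51. Cortex and hippocampus markers averaged 8.23 to 8.44 and 8.37 to 8.46, hypothalamus markers 8.22 to 9.43 and 7.46 to 9.42, and choroid plexus markers 7.62 to 8.33 and 6.94 to 8.22. In this order the lists held 9, 3, 3, 5 and 2 uncompressed probe sets. In limma, Prox1 of the cortex and hippocampus list was called lower (-0.35, adjusted p = 0.011), with Slc17a7 at 0.094 and Wfs1 at 0.095, not called. Mobp of the oligodendrocyte list was called lower on 1 probe set (-0.13, adjusted p = 0.0424), with others at -0.13 and 0.11, not called.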
